A study of Mus musculus with 18 samples.

Results

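The receptors for the constant part of IgG (Fcgr1, Fcgr2b, Fcgr3 and Fcgr4), the TREM receptors Trem1 and Trem2, the signalling adaptors Fcer1g and Tyrobp and the kinase Syk were examined in a catalog of open chromatin from mouse macrophages. They made up 9 of the 21938 protein-coding genes of the GENCODE M21 annotation. Each gene was given a window that held its gene body and the 50000 bp on each side of its most upstream annotated start site. The windows held 102 of the 59617 extended regions, 174 of the 82391 reference peaks and 180 of the 84660 summits, with entries in overlapping windows counted once.

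Accessibility had been measured by ATAC-seq, in which the transposase Tn5 places sequencing adapters into DNA that is not covered by nucleosomes. The cells were bone marrow-derived macrophages (BMDMs), grown from marrow of wild type male C57/BL6 mice at an age of 6 to 8 weeks. All cells received the solvent DMSO for 1 h. Those of 1 group were then left untreated (UT), and the others were given 10 ng/mL of the bacterial outer membrane component LPS (4 groups) or of the cytokine IL-4 (4 groups) for 30 min, 1 h, 2 h or 4 h. The 9 groups held 2 libraries each, 18 in all. The 3 deposited lists combined the libraries and held 0 columns per library, so that stimuli, time points and replicates could not be compared, no depth or replicate error could be given, and every value below describes the single catalog. Markers set down for 6 cell types gave start site peaks at 8 of 8 macrophage genes, 0 of 3 T cell genes, 0 of 4 mast cell genes, 2 of 4 B cell genes, 1 of 4 NK cell genes and 1 of 4 neutrophil genes.

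Fc gamma receptors bind antibody-coated particles and immune complexes. The activating receptors Fcgr1, Fcgr3 and Fcgr4 and the receptors Trem1 and Trem2 carry no signalling motif of their own and pair with a small adaptor in the membrane, Fcer1g (the common Fc receptor gamma chain) or Tyrobp (DAP12). The adaptors hold an immunoreceptor tyrosine-based activation motif (ITAM), which recruits the kinase Syk once it is phosphorylated, whereas Fcgr2b holds the inhibitory counterpart (ITIM) and recruits phosphatases.

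The sequences below are from the plus strand of the reference genome (mm10, read from the RefSeq copy of GRCm38.p6), 5′ to 3′, around the summits on which the description turns. They reach 100 bp to each side of a summit, less any annotated UTR. Capitals mark matches to a consensus on either strand. The first set shows the PU.1/ETS consensus GAGGAAGT, or ACTTCCTC where it lies on the minus strand, close to the start sites of Fcgr4 (chr1:171018780-171018919), Syk (chr13:52583003-52583172) and Fcer1g (chr1:171234616-171234816). PU.1, encoded by Spi1, is the ETS family factor that is required for the macrophage lineage, and other ETS factors can use the same letters. In the Fcgr4 stretch the capitals nearer to the left mark the IRF consensus, GAAA repeated after 2 bases of any kind.
Fcgr4 start: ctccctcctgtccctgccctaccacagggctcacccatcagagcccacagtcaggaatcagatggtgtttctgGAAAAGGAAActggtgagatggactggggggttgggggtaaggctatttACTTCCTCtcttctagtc
Syk start: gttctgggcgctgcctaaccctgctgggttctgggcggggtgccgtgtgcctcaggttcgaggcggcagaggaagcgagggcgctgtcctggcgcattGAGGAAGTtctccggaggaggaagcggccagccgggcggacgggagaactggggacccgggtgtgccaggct
Fcer1g upstream: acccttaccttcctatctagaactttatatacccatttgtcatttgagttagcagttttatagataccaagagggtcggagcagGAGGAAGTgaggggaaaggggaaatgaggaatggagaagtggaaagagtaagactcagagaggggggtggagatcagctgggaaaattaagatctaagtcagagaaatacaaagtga

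The match lay 22 bp from the summit at Fcgr4 and 9 bp at Fcer1g, and the Syk match spanned the summit itself. The 3 stretches overlapped no exon of these genes. Of the 26 summits within 1000 bp of a start site of the 9 genes, 4 had the PU.1/ETS consensus within 100 bp, among them the 3 shown, and 5.08% of all summits near a start site had it.

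Further stretches are shown for genes without that consensus at the start site. The summit 54 bp from the shared start site of Fcgr3-201 and Fcgr3-204 lay in an intron of the longer Fcgr3-202 (chr1:171059404-171059557) and held a C/EBP consensus (TTGCNNAA), 26 bp from the summit, and an NF-kB consensus at 89 bp. The Fcgr2b stretch is intronic (chr1:170973072-170973272), lies next to the start site of the antisense transcript Gm38204 and holds 2 PU.1/ETS matches in opposite directions.
Fcgr3 start: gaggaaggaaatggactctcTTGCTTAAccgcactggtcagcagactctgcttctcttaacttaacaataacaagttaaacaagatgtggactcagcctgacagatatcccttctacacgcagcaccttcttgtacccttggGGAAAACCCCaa
Fcgr2b intron: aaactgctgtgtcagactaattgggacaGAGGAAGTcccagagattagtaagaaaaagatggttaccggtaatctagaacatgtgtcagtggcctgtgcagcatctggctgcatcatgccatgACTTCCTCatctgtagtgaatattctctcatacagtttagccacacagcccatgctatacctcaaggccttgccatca

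AP-1, the dimer of Fos and Jun family factors, binds TGACTCA or TGAGTCA, and the best scored summits with these letters in the windows of Trem2, Fcgr1 and Trem1 are given next. The Trem2 stretch (chr17:48355910-48356110) lies downstream of the gene and has 2 matches, 1 bp and 25 bp from the summit. The Fcgr1 stretch (chr3:96302743-96302943) is intergenic, 8874 bp upstream of the start site, also with 2 matches. The Trem1 stretch (chr17:48234670-48234870) is in an intron of Trem1 and has 1 match, 7 bp from the summit.
Trem2 downstream: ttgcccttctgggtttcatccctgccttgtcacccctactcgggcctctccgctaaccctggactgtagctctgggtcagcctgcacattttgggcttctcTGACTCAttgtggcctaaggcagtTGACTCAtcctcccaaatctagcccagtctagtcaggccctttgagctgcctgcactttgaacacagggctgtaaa
Fcgr1 upstream: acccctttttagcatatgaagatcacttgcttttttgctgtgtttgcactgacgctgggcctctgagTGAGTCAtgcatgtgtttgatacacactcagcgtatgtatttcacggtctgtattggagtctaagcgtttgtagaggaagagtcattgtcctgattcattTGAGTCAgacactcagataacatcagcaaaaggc
Trem1 intron: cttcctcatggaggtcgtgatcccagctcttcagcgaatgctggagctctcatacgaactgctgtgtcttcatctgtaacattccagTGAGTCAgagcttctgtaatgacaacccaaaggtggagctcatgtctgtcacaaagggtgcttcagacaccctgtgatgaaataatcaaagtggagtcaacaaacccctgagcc

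The NF-kB consensus was shown for the gene bodies of Fcer1g (chr1:171230997-171231197) and Syk (chr13:52636275-52636475). At Fcer1g the site reads as a match on both strands, begins 1 bp from the summit and is joined by an IRF match 46 bp away. This summit lies on an exon that is noncoding in the annotation. The Syk stretch is intronic, and its site lies 18 bp from the summit.
Fcer1g gene body: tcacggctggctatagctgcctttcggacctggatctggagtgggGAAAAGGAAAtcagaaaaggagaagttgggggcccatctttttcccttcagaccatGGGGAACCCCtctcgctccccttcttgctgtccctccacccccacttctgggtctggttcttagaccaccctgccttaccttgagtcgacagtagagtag
Syk intron: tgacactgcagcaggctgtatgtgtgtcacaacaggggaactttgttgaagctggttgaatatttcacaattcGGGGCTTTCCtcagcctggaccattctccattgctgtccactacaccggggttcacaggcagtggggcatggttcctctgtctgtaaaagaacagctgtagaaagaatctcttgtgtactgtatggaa

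All 9 genes had a reference peak within 1000 bp of an annotated start site, against 56.5% of all protein-coding genes (12402 of 21938). The count was 9 of 9 at 500 and 2500 bp as well and with the most upstream start site alone. A peak also covered at least 1 annotated start site of every gene. The summit nearest to a start site lay 2 bp away at Tyrobp, 7 bp at Fcer1g and at Trem2, 18 bp at Syk, 31 bp at Fcgr1, 39 bp at Fcgr2b, 40 bp at Fcgr4, 54 bp at Fcgr3 and 73 bp at Trem1. The adaptors and Trem2 were thus at the near end of this order, and the IgG receptors and Trem1 at its far end. From the most upstream start site alone, the distance was 7 bp at Fcer1g and Trem2, 30 bp at Tyrobp and 31 bp at Fcgr1. It was 40 bp at Fcgr4, 70 bp at Syk, 73 bp at Trem1, 167 bp at Fcgr3 and 459 bp at Fcgr2b. Tyrobp and Fcgr1 were then nearly level, and Trem1 was no longer at the far end.

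The summit list carries a score whose scale is not stated in the sources used here, and which ran from 102 to 2781 with a median of 737. Scores were used only to rank summits within the list. For each gene the highest score within 1000 bp of a start site is called the best start site score. The scores had no replicates, so that no order between neighbouring values could be tested.

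Among the activating receptors of IgG, Fcgr1 is the high affinity receptor and lies on chromosome 3 apart from the others (chr3:96282909-96293969, minus strand). Its best start site score was 1308, at the summit 31 bp upstream of the start site, and 39.9% of genes with a start site peak scored lower. A second peak with a score of 748 lay 424 bp downstream of the annotated start sites. Fcgr4, which binds IgG2 subclasses, lies on chromosome 1 (chr1:171018920-171029761, plus strand) and had the lowest best start site score of the 9 genes, 956, with 19.0% of genes lower. Its summit was 40 bp upstream of its only annotated start site, flanked by peaks with scores of 737 and 812.

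The low affinity activating receptor Fcgr3 (chr1:171051174-171064935, minus strand) had the highest best start site score of the set, 2415, and 99.9% of genes with a start site peak scored lower. It had 6 start site peaks, at 2 groups of start sites and the start of a retained intron. The 2415 summit was nearest to the start site of Fcgr3-202 and lay 167 bp inside that transcript. The summit at the start site shared by Fcgr3-201 and Fcgr3-204 scored 1568, which was higher than the score of 57.6% of genes. A further summit of 1129 lay 538 bp downstream of the start site of Fcgr3-203, a transcript with a retained intron.

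The peaks around the Fcgr3-202 start site lay over transfer RNA genes, which are annotated in RefSeq and not in the GENCODE M21 file used here. Transfer RNA genes are short, are read by RNA polymerase III and occur in arrays. The 2415 summit fell within n-TGtcc1, a glycine tRNA gene (chr1:171064699-171064770), and the next summit, with a score of 1995, fell within the aspartate tRNA gene n-TDgtc3 (chr1:171065358-171065429). A peak with a score of 1619 overlapped the glutamate gene n-TEctc5, and one of 1260 the leucine gene n-TLcag6. Of the 6 start site peaks of Fcgr3, 4 therefore overlapped a tRNA gene, and without them the best start site score of Fcgr3 was 1568, below those of Tyrobp, Trem2 and Fcer1g. Tn5 insertions at a tRNA gene and at the start site of Fcgr3-202 cannot be told apart in these lists.

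The window of Fcgr3 held 25 tRNA genes and that of Fcgr4 10, all 10 of them shared with Fcgr3. The window of Fcgr1 held 4 and those of the other 6 genes held 0. Of the 29 tRNA genes in all, 20 were overlapped by a reference peak, against 54.6% of the 403 tRNA genes on the primary chromosomes. Summits in peaks over tRNA genes were 21 of the 180 (11.7%), against 0.278% of all summits. Their scores ran from 384 to 2415 with a median of 923, and the other summits of the windows had a median of 878. By window, they accounted for 20 of the 34 summits of Fcgr3, 12 of the 32 of Fcgr4 and 1 of the 24 of Fcgr1.

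A block of 5 tRNA genes (for glutamate, glycine, aspartate, leucine and glycine) was repeated 3 times in tandem at and upstream of the Fcgr3-202 start site. In the copy nearest to Fcgr3, 5 of the 5 genes had a peak. In each of the other copies, the first and the last gene had a peak and the 3 in between had none. The 76 bases around the 2415 summit, the length of a read, occur 3 times in the genome, at chr1:171064730-171064805, chr1:171072365-171072440 and chr1:171079979-171080054, and only the first of these lay in a reference peak. A read of exactly these 76 bases would match all of the copies equally well, and reads offset from this stretch were not checked. The share of each copy in the score cannot be told apart. The best scored summit upstream of Fcgr3 and away from start sites, 1773, is shown by its 76 bases (chr1:171074379-171074454), which recur at chr1:171066708-171066783.
Fcgr3 repeat: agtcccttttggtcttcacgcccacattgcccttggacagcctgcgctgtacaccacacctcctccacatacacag

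Sequence found once in the genome surrounded 172 of the 180 summits at 76 bases (95.6%, 95% Wilson interval 91.5 to 97.7, which covers counting error only), against 98.9% of all summits. Of the 8 exceptions, 7 lay in the Fcgr3 window and 1, with a score of 1955, at the histone gene Hist2h2aa1 in the window of Fcgr1. The summits at the start sites of Fcgr2b, Fcgr4 and Fcgr3-201 were each in sequence found once.

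The inhibitory receptor Fcgr2b (chr1:170958617-170976547, minus strand) had a best start site score of 1176, with 31.3% of genes lower. That summit lay 762 bp upstream of the farthest start site. The peak that covered the start site shared by 5 of its transcripts scored 979, and another, near the start of a processed transcript, scored 900. Inside the gene body an intronic summit scored 1468 and the one with both PU.1/ETS matches shown above 1456. The start site itself was thus lower in score than these intronic summits.

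Of the adaptors, Fcer1g (chr1:171229572-171234365, minus strand) had a best start site score of 1670, with 64.8% of genes lower, in a peak of 692 bp that covered all 3 of its start sites. The same peak held a second summit of 945, 351 bp upstream, with the PU.1/ETS match. Weaker peaks with scores of 332 and 393 lay downstream, inside the gene. Tyrobp (chr7:30413760-30417585, plus strand) scored 1418 at the summit 2 bp from a start site and 1799 at a separate peak 865 bp upstream, with 74.6% of genes lower than the latter. A weaker summit of 603 lay between these peaks. Among genes with a start site peak, Fcer1g thus ranked above the middle, and so did Tyrobp by its upstream peak but not by the peak over its start sites, while 3 of the 4 IgG receptors ranked below it.

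Trem1, which amplifies inflammatory responses, lies on chromosome 17 (chr17:48232768-48246924, plus strand) and had a single start site peak, with a score of 1284 and 38.4% of genes lower. Trem2, which binds lipids and apolipoproteins, lies on the same chromosome (chr17:48346401-48354147, plus strand). Its start site summit scored 1708, with 67.6% of genes lower, and held a C/EBP consensus. A second Trem2 peak, 999 bp downstream, scored 1493, so that Trem2 was above Trem1 in this list at both of its peaks.

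The kinase Syk (chr13:52583173-52648792, plus strand) has start sites in 2 places. The start site of Syk-203 had a summit of 1284, the adjoining peak over the start site of Syk-202 had 900, and the internal start site of Syk-201 had 878. A weak peak of 298 lay upstream, its summit 481 bp from the start site of Syk-203. The sequences around the summits of 1284 and 900 were rich in G and C, 69.2% and 72.1% of bases, with 17 and 29 CpG dinucleotides within 100 bp of the summit. The internal start site had 47.3% and 0 CpG dinucleotides. For the remaining peaks over start sites the number of CpG dinucleotides was 20 at the start site of Fcgr3-202, 9 and 1 at Fcer1g, and at most 5 elsewhere.

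**Figure D1:**
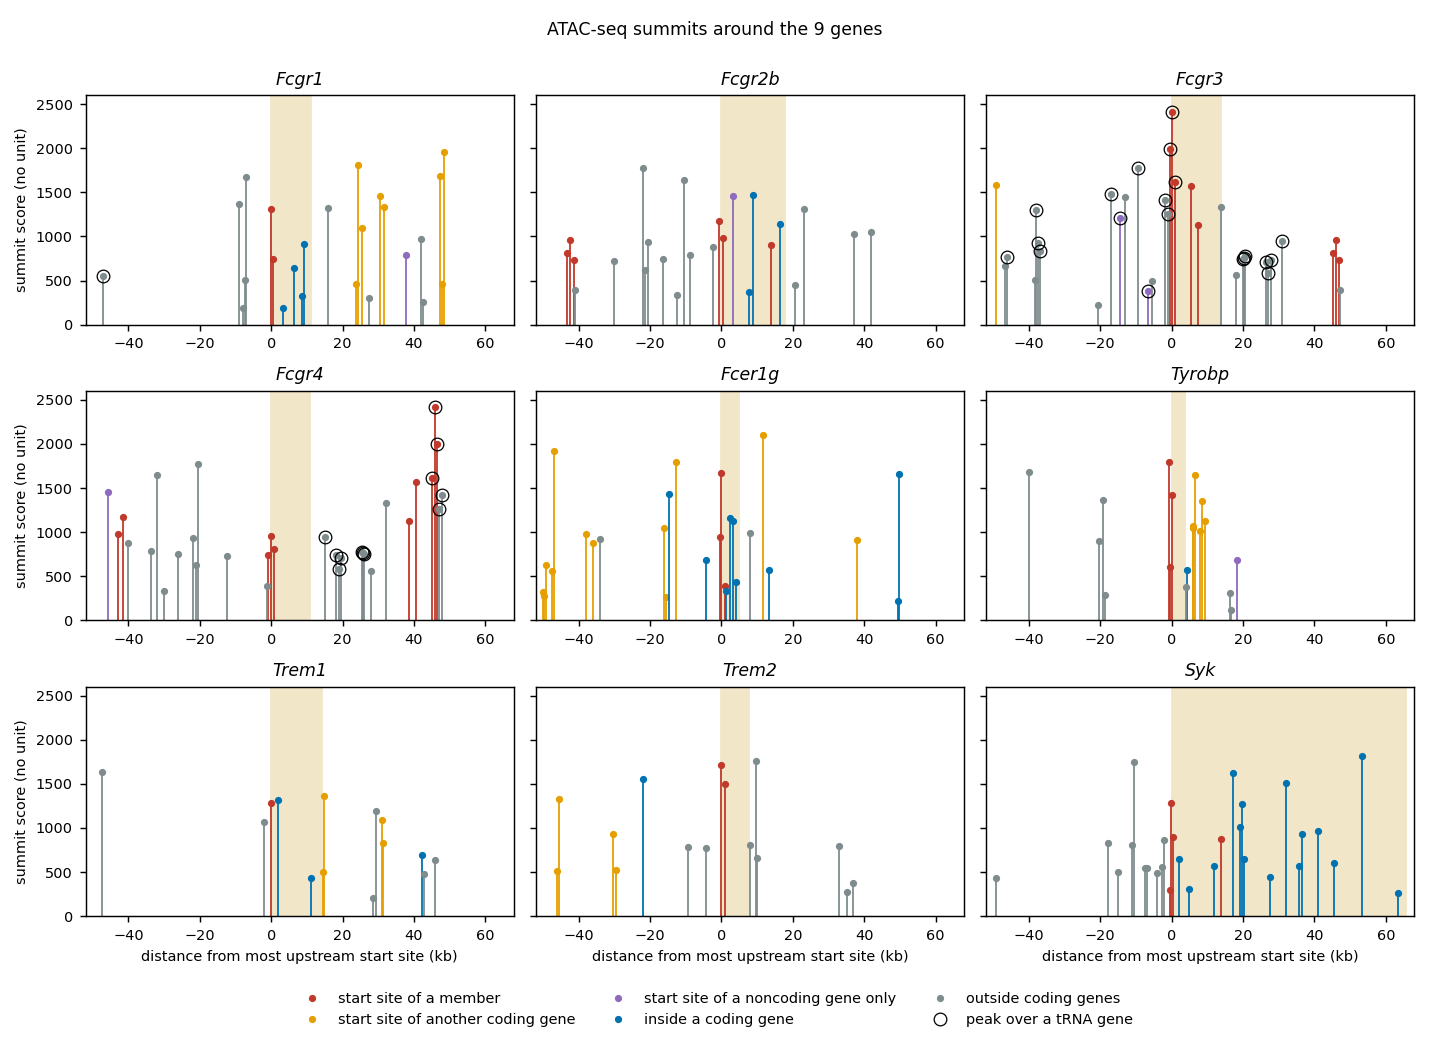
Each panel plots the summits in the window of 1 gene by distance from its most upstream start site (horizontal axis, in kb, downstream to the right) and score (vertical axis, no unit); shading marks the gene body, colours the annotated place and open circles a reference peak over a tRNA gene. The circled summits gather in the windows of Fcgr3 (20 of 34) and Fcgr4 (12 of 32), and the gene body of Syk holds 17 summits.

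The median of the 9 best start site scores, 1308, was below that of all genes with a start site peak, 1456 (quartiles 1071 and 1799). The number of regions went the other way. The windows held a median of 13 extended regions (quartiles 10 and 17), against 5 over all protein-coding genes (quartiles 1 and 8), and a median of 24 summits against 6. An extended region is a reference peak with 700 bp added on each side and joined with its neighbours, so a dense stretch counts once. The 8 macrophage marker genes had a median of 11.5 regions. Of the gene lists described below, inhibitors of ITAM signalling had 13.5 and kinases and adaptors downstream of ITAMs 11. Other Fc and TREM family genes had 9, ITAM receptors of myeloid cells 8 and the lymphocyte list 4.

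**Figure D2:**
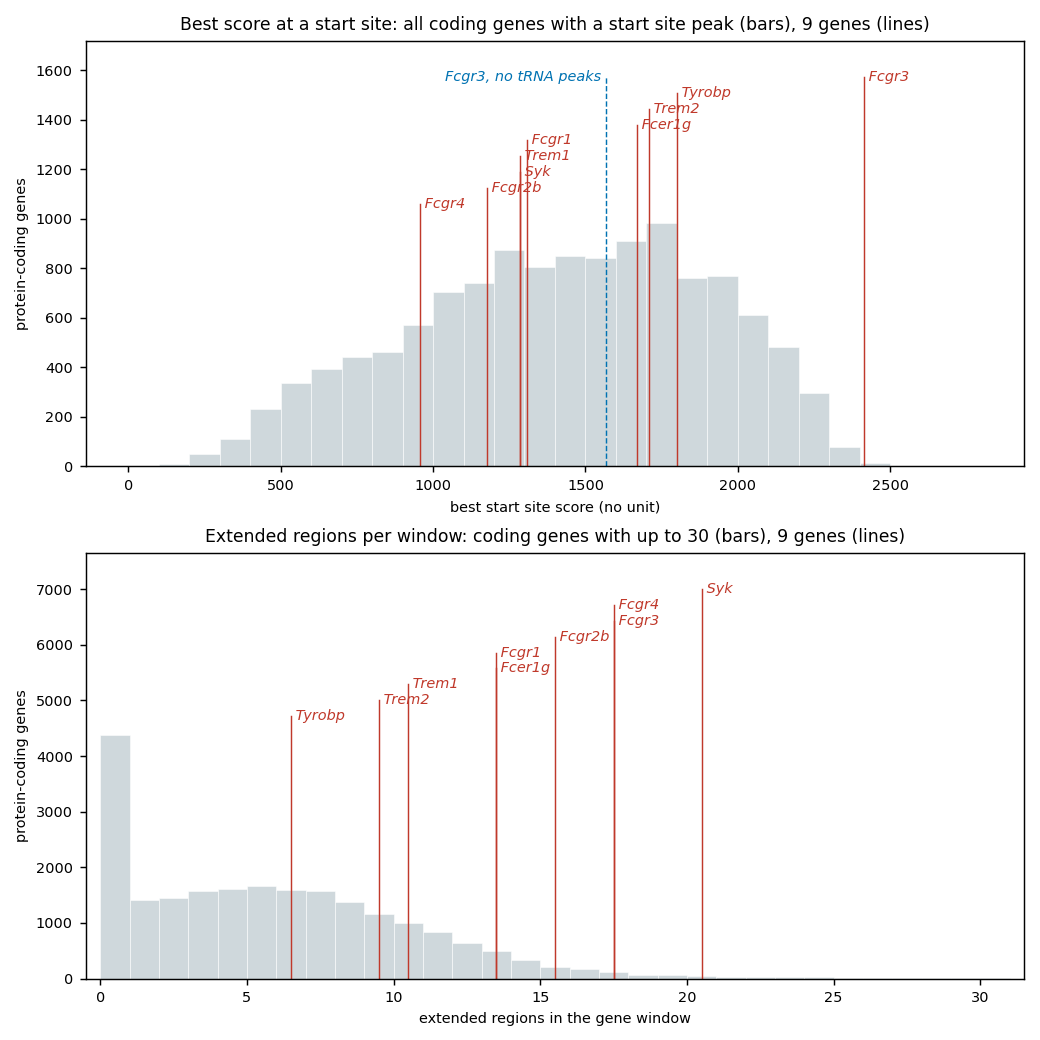
The upper panel shows the best start site score (horizontal axis, no unit) and the lower panel the number of extended regions in the window (horizontal axis) for protein-coding genes (vertical axis, number of genes); lines mark the 9 genes, and the dashed line is Fcgr3 without peaks over tRNA genes. Fcgr3 stands at 2415 and, without those peaks, at 1568, and all 9 genes lie above the all-gene median of 5 regions; 39 genes with over 30 regions are not drawn.

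Syk had the most extended regions, 20, and 99.0% of protein-coding genes had fewer. Its window is also the widest, 115620 bp, since its gene body is 65620 bp long, and within 50000 bp of the start site it had 18. Its first place depended on the setting. With only regions that hold a summit at or above the list median it had 10, behind Fcgr3 and Fcgr4 (14), Fcgr2b (12) and Fcer1g (11). With 100000 bp it had 23, behind Fcgr4 (33), Fcgr2b (31) and Fcgr3 (30). Fcgr3 and Fcgr4 had 17 each, Fcgr2b 15, Fcgr1 and Fcer1g 13, Trem1 10 and Trem2 9. Tyrobp had 6, close to the middle of all genes, where 55.1% had fewer, but these 6 regions held 18 summits, more than in 88.4% of genes.

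The 3 clustered receptors share much of this sequence. The windows of Fcgr2b and Fcgr4 overlapped by 57628 bp with 9 shared regions, those of Fcgr3 and Fcgr4 by 53986 bp with 9, and those of Fcgr2b and Fcgr3 by 11613 bp with 1. Fcgr4 lay between the others and had 0 regions of its own, so that the 3 counts are not independent. Leaving out peaks over tRNA genes, a setting chosen after the data were seen, left 11 regions for Fcgr3, 12 for Fcgr4 and 12 for Fcgr1. The number of summits of Fcgr3 then fell from 34 to 14.

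Of the 180 summits, 26 lay at start sites of the 9 genes, 35 at start sites of other coding genes (together 33.9%, against 25.7% of all summits), 5 at start sites of noncoding genes or pseudogenes only (2.78% against 3.57% of all summits), 29 in introns (16.1%, against 36.5% of all summits), 78 outside coding genes (43.3% against 31.1%) and 7 in UTRs or other exons. In the Fcer1g window 12 of 26 summits were at other coding genes, among them Ppox and B4galt3. In the Fcgr1 window 8 of 24 were at histone genes (Hist2h2aa1, Hist2h2bb, Hist2h3b, Hist2h3c1 and Hist2h4). The Tyrobp window had 6 of 18 at Hcst, which encodes the related adaptor DAP10, and at Nfkbid, which encodes an atypical member of the IkB family.

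Median scores were 878 for the 180 summits and 737 for the list. At or above the list median were 112 of the 180 (62.2%), against 50.5% of all summits. Near start sites the median was 1059.5 against 990, and away from them 764 against 664. Fcgr2b and Fcgr4 shared their highest summit away from start sites, 1773, which lay outside coding genes 21882 bp upstream of Fcgr2b and 20491 bp upstream of Fcgr4.

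For Syk the highest summit away from start sites, 1812, was the intronic one shown above, 53202 bp downstream of the start site, followed by 1747 at 10501 bp upstream and 1619 in an intron 17308 bp downstream. The last of these had 2 RUNX matches (TGTGGTT). The Syk gene body held 17 summits, 13 of them in introns, over 65620 bp, whereas the much shorter bodies of Fcer1g (4794 bp) and Fcgr1 (11061 bp) held 5 each. Trem2 had its highest such summit, 1760, at the AP-1 sites 9609 bp downstream of its start site, a value above that of its own start site. The annotated start site nearest to that summit was that of Treml1, 3906 bp away. At Fcgr1 the highest such summit was 1670, 6909 bp upstream, and at Tyrobp 1683, 40053 bp upstream.

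For Trem1 the highest was 1632 at 47352 bp upstream, and in its own first kilobases the intronic AP-1 summit scored 1320, 2002 bp downstream of the start site. For Fcer1g it was 1657, in an intron of the neighbour Pcp4l1 49858 bp downstream, and in its own body 1164. Which gene a summit between genes acts on was not measured.

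Consensus sequences for 8 factor families were counted within 100 bp of the summits on both strands, and windows of neighbouring summits can share a site. PU.1/ETS was found at 19 of the 180 summits (10.6%, Wilson interval 6.86 to 15.9), against 9.08% of all summits, and these were 20 distinct sites. Divided by place, it was at 10 of 66 summits within 1000 bp of any start site (15.2%, interval 8.44 to 25.7), against 5.08% of all such summits (4 of the 10 were at start sites of the 9 genes, the others at those of further genes), and at 9 of 114 away from start sites (7.90%), against 10.7%. The Tyrobp window alone had it at 6 of 18 summits, including a single summit at Hcst and another at Nfkbid. With the shorter core GAGGAA, 36.7% of the summits of the windows and 36.4% of all summits had a match.

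AP-1 sites were at 17 of the 180 summits (9.44%, interval 5.98 to 14.6), against 15.9% of all summits. Away from start sites the share was 8.77% (interval 4.84 to 15.4) against 19.4%, and near start sites it was 10.6% (7 of 66, interval 5.23 to 20.3) against 7.65%. C/EBP stood at 21 summits (11.7% against 11.4%), and at 8 of 66 near any start site (12.1%, interval 6.27 to 22.1, against 7.20%). Of these, 6 were among the 26 start site summits of the 9 genes: 3 at Fcgr3, 1 of them over the tRNA gene n-TEctc5, and 1 each at Fcgr2b, Tyrobp and Trem2. Without peaks over tRNA genes, a setting chosen after the data were seen, C/EBP was at 5 of 61 summits near a start site (8.20%), since 3 of the 8 lay in repeated sequence at the glutamate tRNA genes. NF-kB was at 12 (6.67% against 5.55%), STAT6 (TTC and GAA 4 bases apart) at 10 (5.56% against 6.81%), RUNX at 11 (6.11% against 7.91%) and IRF at 6 (3.33% against 3.64%). SP/KLF (GGGGCGGGG) was at 3 (1.67% against 4.46%), all near start sites, where this was 4.55% (interval 1.56 to 12.5) against 12.7%. A match is a description of letters, and binding was not measured.

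**Figure D3:**
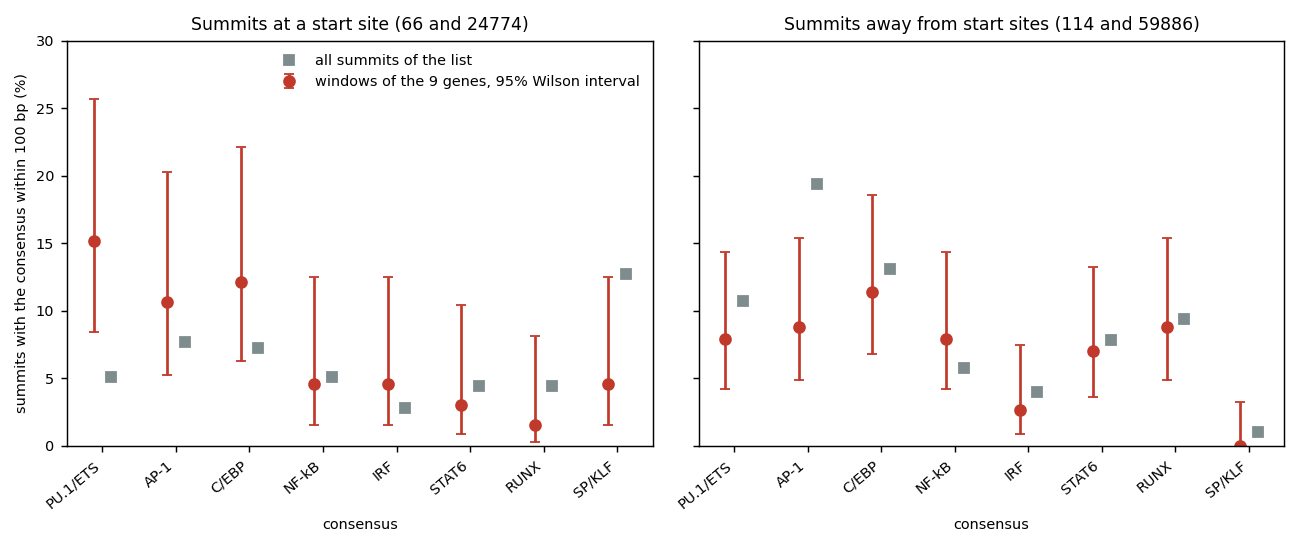
Points give the share of summits (vertical axis, percent) with each consensus (horizontal axis) within 100 bp, at start sites (left, 66 summits) and away from them (right, 114), for the windows of the 9 genes, with 95% Wilson intervals for counting error, and squares give all summits of the list. The interval lies above the 5.08% of all summits for PU.1/ETS at start sites (15.2%) and below 19.4% for AP-1 away from them (8.77%). For SP/KLF at start sites (4.55%, 3 summits) it ends at 12.5%, just under 12.7%. All other intervals include the share of all summits. Neighbouring summits are not independent, the comparisons were not corrected for their number, and no test was run.

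Other genes of the pathway were taken from 5 lists, read against 56.5% of all protein-coding genes with a start site peak. Kinases and adaptors downstream of ITAMs had one at 22 of 22 genes and inhibitors of ITAM signalling at 14 of 14. In the first list scores ran from 411 at Btk, a Tec family kinase, to 2310 at Bcl10 and Malt1, which form the signalling complex with Card9 (1760). The SRC family kinases that phosphorylate ITAMs ran from 990 (Fgr) to 2127 (Fyn), with 1443 at Src and 1594 at Lyn. Among the inhibitors, Inpp5d (SHIP1), the lipid phosphatase recruited by Fcgr2b, scored 1176, the same value as Fcgr2b, and the tyrosine phosphatase Ptpn6 (SHP-1) 1760.

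Receptors of myeloid cells that signal through ITAMs had a start site peak at 9 of 11 genes. The highest was Cd300lb with 1431, and Pira2 with 242 and Sirpb1a with 307 were the lowest. Oscar and Siglech had none. Clec7a is not classed as protein-coding in the annotation and was not counted. The median of this list was 1141, under that of the 9 genes.

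Of the other Fc receptor and TREM family genes 8 of 16 had one. Present were the neonatal Fc receptor Fcgrt (1799), Fcrlb (1493), Trem3 (1357), Fcrls (1345), Treml2 (1332), Fcrl1 (1141), Treml4 (1094) and Fcrl5 (769). Absent were the IgE receptor chains Fcer1a and Ms4a2, Fcer2a, Fcrla, the receptors for IgM and IgA Fcmr, Fcamr and Pigr, and Treml1, whose nearest summit was 3516 bp from a start site. Fcer1a, which pairs with Fcer1g in mast cells, had 0 summits in its window, and its nearest lay 138931 bp away.

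Over these 4 lists, 53 of 63 genes had a start site peak. The lymphocyte list, of ITAM chains, further receptor and adaptor genes and a kinase of T, B and NK cells, had a start site peak at 4 of 10 genes. Cd3e, Cd3g, Cd79a, Cd79b, Ncr1 and Zap70, the T cell relative of Syk, had none. Those present were Hcst (1644), which shares the window of Tyrobp, Cd3d (1632, the nearest summit 687 bp from a start site), Cd247 (367) and Klrk1 (242). The last 2 scored higher than fewer than 1% of genes with a start site peak.

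**Figure D4:**
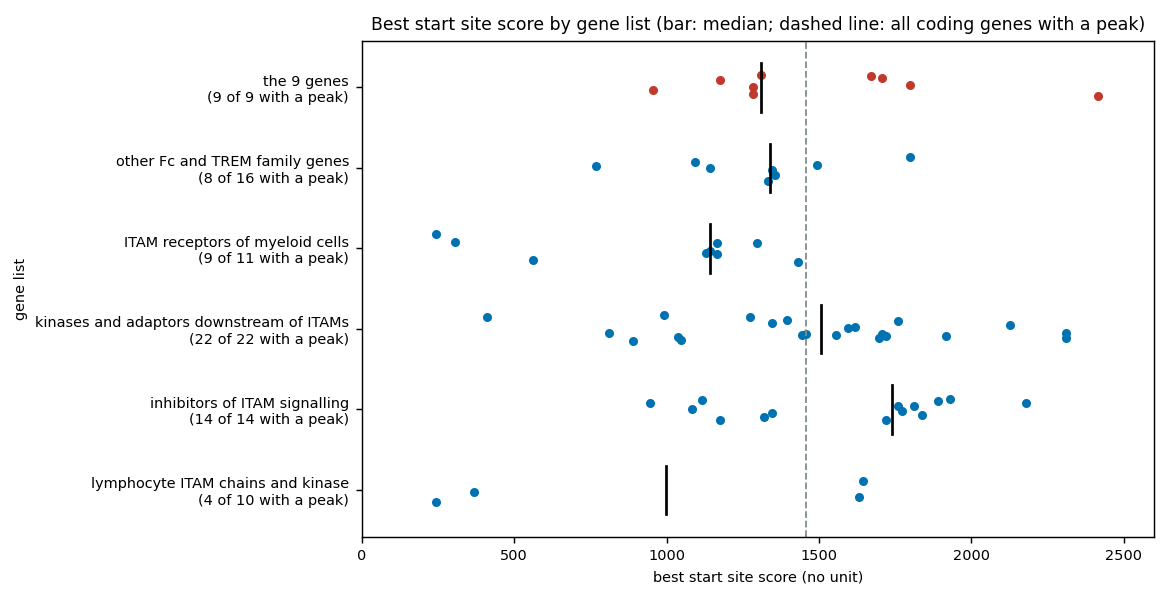
Each point is the best start site score (horizontal axis, no unit) of a gene with a start site peak, by gene list (vertical axis); vertical bars are medians and the dashed line is the median of all protein-coding genes with a start site peak, 1456. The inhibitors have the highest median, 1740.5, the 9 genes 1308 and the lymphocyte list 999.5 from only 4 genes.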

How the data were processed

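ATAC-seq libraries from BMDMs (18 libraries) had been sequenced by the authors as single-end reads of 76 bases. Per the study's methods and the submitters' processing notes, they trimmed reads with Trimmomatic 0.39, aligned them to mm10 with the mapping step of ShortStack, filtered them with SAMtools 1.9 and called peaks with MACS2 2.2.6, keeping duplicates, so that heights can include PCR copies. For the reference set they kept only peaks that passed a strict q-value cutoff and overlapped sufficiently between replicates. A gene without a listed peak is thus not shown to have closed chromatin. Reads that fit several places make the scores of repeated sequence uncertain. The deposited files are 3 pooled BED lists, and the summit list holds a score of unstated scale, as deposited by the authors. No counts per library were given in them, 0 columns belonged to other samples, and the comparison of stimuli planned with edgeR was not made.

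Positions count from 1 on mm10. Genes came from GENCODE M21, and sequence and tRNA genes from RefSeq GRCm38.p6. Of the extended regions, 59617 of 59617 were rebuilt from peaks with a flank of 700 bp. All 9 genes are named, with every start site peak and the best scored summits; list genes were named by presence or absence of a start site peak or by score. Printed sequences were chosen after their values were seen: the best scored summit with the consensus named first among those in peaks over a start site (Fcgr4, Syk, Fcer1g and Fcgr3), in the gene body (the NF-kB pair) or in the window (the others), and for the repeat the best scored summit away from start sites in sequence found more than once. Genes, lists and motifs were chosen with earlier results of these data known. Overlaps, motifs and copies were counted with Python 3.11.15, numpy 2.4.6 and pandas 2.3.3, tested on simulated data, and Wilson intervals with scipy 1.17.1. Alternatives comprised other distances, windows, summit sets and consensus lengths. No test was run, since pooled lists have no replicates. The values of a few items are not reported here.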

Additional observations from a re-analysis of the deposited data

How the results depend on the processing

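The lists have no libraries, so no replicate could be left out and no error between replicates given. No paired analysis was possible because the columns carry no replicate numbers. Shares from few summits have wide intervals, and the score has no stated scale. The 9 of 9 genes with a start site peak, their median best start site score (1308 to 1320) and the number of genes with one in the 4 pathway lists other than the lymphocyte list (49 to 56 of 63, 53 as reported) kept close values under the settings tried for them.

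Counts of regions moved with the window. The distinct extended regions were 37 in gene bodies alone instead of 102, and the median per gene, 13, became 6 with 20000 bp, 22 with 100000 bp, 4 in gene bodies, and 24 when reference peaks or summits were counted. For single genes, 6 of 9 counts moved by over 1.5 times at 20000 bp, 6 at 100000 bp, 8 in gene bodies (all but Syk, 14) and 1 with higher scored regions only (Syk, 10). The PU.1/ETS share, 10.56%, was 36.67% with the shorter core. The share of summits in sequence found once, 95.56%, was 90.56% at 38 bases and 98.11% without peaks over tRNA genes. Without those peaks, a setting chosen after seeing the data, 95 distinct regions and a median of 12 per gene were left, and the PU.1/ETS share was 11.95%.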
